A study of Homo sapiens with 4 samples.

Results

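The genes of glycolysis and the pentose phosphate pathway were compared between a cisplatin-resistant derivative and wild type cells of UM-UC-3, a cell line established from a human urothelial carcinoma. They were taken as the rows of the deposited gene table whose symbol was one of 36 named genes of glucose and lactate transport, glycolysis, pyruvate entry, the pentose phosphate pathway and glycogen. Rows were present for 34 of them, among 13743 genes in all, and SLC2A3 and ALDOC had none. All 34 had a mean of at least 1 CPM (reads of a gene per 1000000 reads of the column) over the 4 samples and were tested, together with 12587 genes in all. The resistant cells, 2 samples, were grown in DMEM with 10% serum and 5 µM cisplatin (CDDP), and wild type cells, also 2 samples, are the line they were derived from. The labels give no medium for wild type cells, so acquired resistance cannot be told apart from the drug's presence in any comparison, and the resistant cells are 1 derived line. Whether replicates of a group were separate cultures is not stated, and p-values therefore measure only how far these samples differ, possibly for technical reasons.

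Transcripts were measured by cap analysis of gene expression (CAGE), which captures and counts the capped 5′ ends of RNA, so that a transcript is counted at its start whatever its length. Read from the smallest step between values, 1 read was worth 0.0472 and 0.0562 CPM in the resistant columns and 0.0548 and 0.0551 CPM in the wild type columns. In a bulk sample, fewer cells that make a transcript and less of it per cell cannot be told apart. The table lists 4 of 16 urothelial and epithelial markers, with KRT18 at 90.5 and 85.5 CPM in resistant cells and 306 and 309 CPM in wild type cells, while uroplakins, GATA3 and EPCAM have no row. KRT8 was lower as well, and KRT7 was higher, with 10.05 and 10 CPM in resistant cells and 5.32 and 5.56 CPM in wild type cells (limma, adjusted p = 0.000734). Of 5 mesenchymal markers all are listed, and the most abundant, VIM, read 1432 and 1343 CPM in resistant cells and 1365 and 1336 CPM in wild type cells, which did not pass. CDH2 and ZEB2 passed as higher and ZEB1 as lower (limma, adjusted p = 4.59e-05, 2.49e-05 and 5.91e-05). FN1, with 0.52 and 0.39 CPM in resistant cells and 1.04 and 1.71 CPM in wild type cells, was too low to be tested. Markers of other cell types were few, with 3 of 6 leukocyte, 2 of 6 fibroblast and 0 of 5 endothelial markers listed, and PTPRC, the defining leukocyte marker, has no row. The 3 leukocyte genes summed to 102 and 94.7 CPM in resistant cells and to 148 and 124 CPM in wild type cells. Of these, CD68 passed as lower and SRGN did not pass (limma, adjusted p = 0.000318 and 0.430), while CORO1A was too low to be tested. The part of these leukocyte genes in the results was not tested.

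Glycolysis splits glucose into pyruvate in the cytosol, and lactate dehydrogenase turns pyruvate into lactate, which leaves the cell with a proton. The pentose phosphate pathway branches off after glucose is phosphorylated: its oxidative arm makes NADPH, and its non-oxidative arm exchanges sugars between ribose phosphate and glycolysis. Many of the glycolytic genes are known targets of the hypoxia-inducible factor HIF-1, which binds a short motif in their promoters, and tumour cells commonly run glycolysis at a high rate even with oxygen present.

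Most glycolytic genes were lower in resistant cells, whereas the most abundant of them differed little and the pentose phosphate genes moved both ways. Of the 34 genes, 21 passed the test as lower and 3 as higher (limma, Benjamini-Hochberg adjusted over all tested genes, threshold 0.05), and 10 did not pass. Among all tested genes 21.6% passed as lower, 33.5% as higher and 55.2% in either direction. Their median log2 fold change was -0.29, beside a median of 0.087 over all tested genes. A log2 fold change of -1 or below was reached by 8 of the 34, where 3.58% of all tested genes passed as lower by that much. Both resistant samples lay outside both wild type samples in 30 of the 34 genes, against 78.5% of all tested genes. Under median-ratio scaling, 3574 of all tested genes passed as higher and 3420 as lower, against 4221 and 2724 in the fit used here. Without resistant replicate 2 the median log2 fold change of the 34 genes was -0.28, beside 0.093 over all tested genes. Without resistant replicate 1 it was -0.33, beside 0.075 over all tested genes. The 15 genes SLC2A1, SLC16A3, HK2, GPI, PFKL, ALDOA, PFKFB4, PGK1, PGAM1, LDHA, PDK1, PDHA1, MPC2, GYS1 and PGM1 passed as lower in each of the 11 alternative fits.

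**Figure D1:**
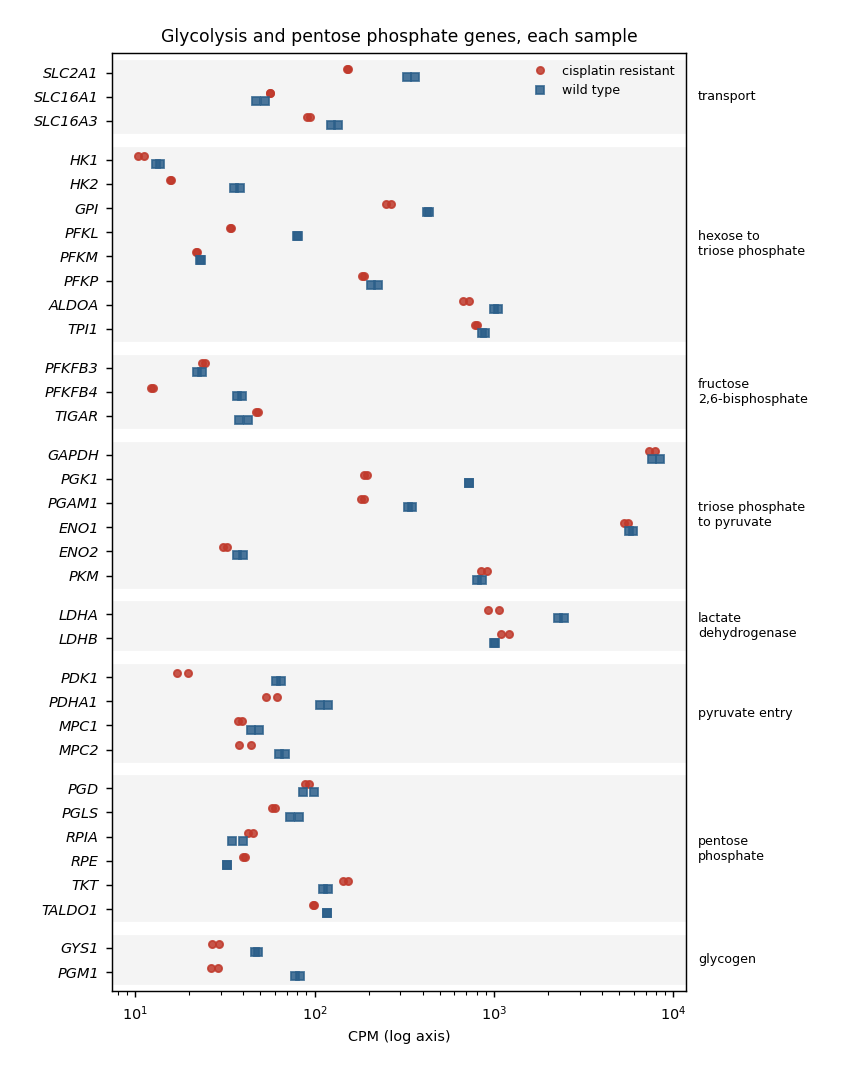
CPM on a log axis for the 34 genes in each of the 4 samples, grouped by step, with circles for cisplatin-resistant and squares for wild type samples. GAPDH and ENO1, with at least 5288 CPM in each sample, lie above all others and nearly coincide between the groups, while PGK1, PDK1, PFKFB4 and PGM1 are clearly separated, with resistant samples lower.

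Together the 34 genes summed to 20208 and 18939 CPM in resistant samples and to 24007 and 22744 CPM in wild type samples. GAPDH and ENO1 alone made up 66.7% and 66.4% of that sum in resistant samples and 60.1% and 58.4% in wild type samples. Without them the sum was 6730 and 6357 CPM in resistant samples, below the 9577 and 9472 CPM of wild type samples. Most of the summed signal thus came from a pair of genes that did not pass the test.

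At the entry of glucose, the basal glucose transporter SLC2A1 (GLUT1, ENSG00000117394.24) read 151 and 153 CPM in resistant cells, against 364 and 329 CPM in wild type cells. Both resistant samples were far below both wild type samples, at 0.439 of the wild type mean. The log2 fold change was -1.18 (SE 0.071; limma, adjusted p = 8e-06). At the exit of lactate, the exporter SLC16A3 (MCT4), typical of highly glycolytic cells, read 90.8 and 94.04 CPM in resistant cells and 136 and 124 CPM in wild type cells, a log2 fold change of -0.49 (limma, adjusted p = 0.000702). SLC16A3 overlaps CSNK1D on the opposite strand in the annotation, and strand use in the counting is not stated; CSNK1D read 71.17 and 69.27 CPM in resistant cells and 63.17 and 62.06 CPM in wild type cells. SLC16A1 (MCT1), the monocarboxylate carrier that works in either direction, read 56.68 CPM in both resistant samples and 47.32 and 52.81 CPM in wild type samples. The groups did not overlap, but the difference of 0.18 on the log2 scale did not pass (95% interval -0.0057 to 0.36; limma, adjusted p = 0.0909). It passed without wild type replicate 2, at 0.26 (limma, adjusted p = 0.0201).

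In the steps that turn glucose into triose phosphates, 6 of 8 genes passed as lower, beside 21.6% of all tested genes. Hexokinases trap glucose in the cell as its phosphate. The inducible HK2 (ENSG00000159399.10) read 15.95 and 15.56 CPM in resistant cells and 35.7 and 38.38 CPM in wild type cells, a log2 fold change of -1.18 (SE 0.089; limma, adjusted p = 2.24e-05). The constitutive HK1 read 11.18 and 10.34 CPM in resistant cells and 13.82 and 13.16 CPM in wild type cells, a change of -0.30 (limma, adjusted p = 0.0407). The resistant samples were the lower ones for both hexokinases. The isomerase GPI, which makes fructose phosphate, was also lower, with 267 and 249.8 CPM in resistant cells and 422 and 433 CPM in wild type cells (log2 fold change -0.72; limma, adjusted p = 6.02e-05).

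Phosphofructokinase, the committed step, is built from liver, muscle and platelet subunits, which differed in how far they changed. The liver subunit PFKL (ENSG00000141959.17) read 33.7 and 34.27 CPM in resistant cells and 80.05 and 80.51 CPM in wild type cells, a log2 fold change of -1.22 (SE 0.071; limma, adjusted p = 6.69e-06). PFKP, the platelet subunit and the most abundant of them here, read 185 and 188 CPM in resistant cells and 207 and 226 CPM in wild type cells, a change of -0.21 (limma, adjusted p = 0.0289). The muscle subunit PFKM read 21.95 and 22.13 CPM in resistant cells and 23.08 and 23.24 CPM in wild type cells, which did not pass (log2 fold change -0.068, 95% interval -0.27 to 0.13; limma, adjusted p = 0.525). PFKM overlaps SENP1 on the opposite strand, which read 32.47 and 32.70 CPM in resistant cells and 32.79 and 24.29 CPM in wild type cells. PFKL is on chromosome 21, whose 129 tested genes had a median log2 fold change of -0.26; the part of its neighbours in the result was not tested. The aldolase ALDOA read 729 and 675 CPM in resistant cells and 1056 and 1005 CPM in wild type cells, a log2 fold change of -0.55 (limma, adjusted p = 0.000376). TPI1, which interconverts the triose phosphates, read 781 and 805 CPM in resistant cells and 857 and 886 CPM in wild type cells, and did not pass (log2 fold change -0.14; limma, adjusted p = 0.115), although it did so under median-ratio scaling (-0.22, adjusted p = 0.0397) and without wild type replicate 1 (-0.16, adjusted p = 0.0324). The call on HK1 ended without resistant replicate 1 or 2 and without wild type replicate 1 or 2 (limma, adjusted p = 0.108, 0.223, 0.102 and 0.0550) and with no filter on low values (0.0520). That on PFKP ended without resistant replicate 1 or 2 (0.201 and 0.166) and without the trend (0.0909).

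The enzymes of fructose 2,6-bisphosphate, an activator of phosphofructokinase, differed in how they changed. PFKFB4 (ENSG00000114268.12), a kinase and phosphatase of the activator, read 12.27 and 12.53 CPM in resistant cells and 36.96 and 39.26 CPM in wild type cells. That is 0.325 of the wild type level, a log2 fold change of -1.54 (SE 0.090; limma, adjusted p = 6.66e-06). Its relative PFKFB3, which mainly makes the activator, read 24.68 and 23.71 CPM in resistant cells and 23.74 and 22.03 CPM in wild type cells. These groups overlapped, and the difference of 0.078 did not pass (95% interval -0.13 to 0.28; limma, adjusted p = 0.489). TIGAR, a p53-induced phosphatase that degrades the activator, read 48.18 and 47.3 CPM in resistant cells and 37.78 and 42.68 CPM in wild type cells. It passed as higher (log2 fold change 0.24; limma, adjusted p = 0.0378), but no longer did so when resistant replicate 1 or 2 or wild type replicate 1 was left out (adjusted p = 0.199, 0.160 and 0.104), under median-ratio scaling (0.160), quantile normalization (0.314) or without the trend (0.0757). A gene that overlaps TIGAR on the same strand, AC008012.1, read 26.95 and 25.06 CPM in resistant cells and 45.40 and 42.57 CPM in wild type cells, opposite in direction to TIGAR.

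Among the enzymes that convert triose phosphate to pyruvate, PGK1 (ENSG00000102144.15), which makes the first ATP of glycolysis, had the largest decrease of the 34 genes. It read 197 and 188 CPM in resistant cells and 725 and 730.4 CPM in wild type cells, 0.264 of the wild type level, with a log2 fold change of -1.91 (SE 0.064; limma, adjusted p = 6.15e-07). The next enzyme, PGAM1, a phosphoglycerate mutase, read 189 and 182 CPM in resistant cells and 333 and 349 CPM in wild type cells, a change of -0.87 (limma, adjusted p = 2.14e-05). The most abundant enzymes of the steps on either side did not pass the test. GAPDH (ENSG00000111640.15), the dehydrogenase before PGK1, read 7910 and 7295 CPM in resistant cells and 8452 and 7587 CPM in wild type cells. ENO1, the enolase after PGAM1, read 5567 and 5288 CPM in resistant cells and 5978 and 5685 CPM in wild type cells. Neither passed, at -0.076 for GAPDH (95% interval -0.31 to 0.16; limma, adjusted p = 0.556) and -0.10 for ENO1 (-0.31 to 0.10; adjusted p = 0.356). The pyruvate kinase PKM read 914 and 847 CPM in resistant cells and 805 and 862 CPM in wild type cells, with overlapping groups (log2 fold change 0.079, 95% interval -0.091 to 0.25; limma, adjusted p = 0.392). ENO2, the neuronal enolase, read 32.37 and 30.73 CPM in resistant cells and 37.01 and 39.92 CPM in wild type cells, a change of -0.28 (limma, adjusted p = 0.0216) that did not pass without resistant replicate 1 or 2 or without wild type replicate 2 (adjusted p = 0.0900, 0.166 and 0.0600). ENO2 overlaps LRRC23 on the same strand, which read 18.88 and 17.81 CPM in resistant cells and 20.56 and 19.66 CPM in wild type cells. PGK1 is on chromosome X, whose 375 tested genes had a median log2 fold change of -0.37, with 204 of them (54.4%) passing as lower; the part of this in the PGK1 result was not tested.

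Lactate dehydrogenase is a tetramer of A and B subunits, of which A is known to favour lactate formation. LDHA (ENSG00000134333.14) read 1073 and 926 CPM in resistant cells and 2446 and 2284 CPM in wild type cells, 0.423 of the wild type level, with a log2 fold change of -1.24 (SE 0.090; limma, adjusted p = 1.96e-05). LDHB (ENSG00000111716.14) read 1206 and 1098 CPM in resistant cells and 995 and 1011 CPM in wild type cells, a difference of 0.20 that did not quite pass (95% interval 0.027 to 0.37; limma, adjusted p = 0.0508). It passed without wild type replicate 2 (0.21, adjusted p = 0.0366), under quantile normalization (0.22, 0.0184), with the replicate number as a block (0.20, 0.0431) and with the filter at 5 CPM (0.20, 0.0490). LDHA was the more abundant subunit in both wild type samples and LDHB in both resistant samples. AC010197.2, which overlaps LDHB on the same strand, had nearly the same values, with 1203 and 1094 CPM in resistant cells and 992.01 and 1010 CPM in wild type cells, so the reads of the pair cannot be told apart.

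**Figure D2:**
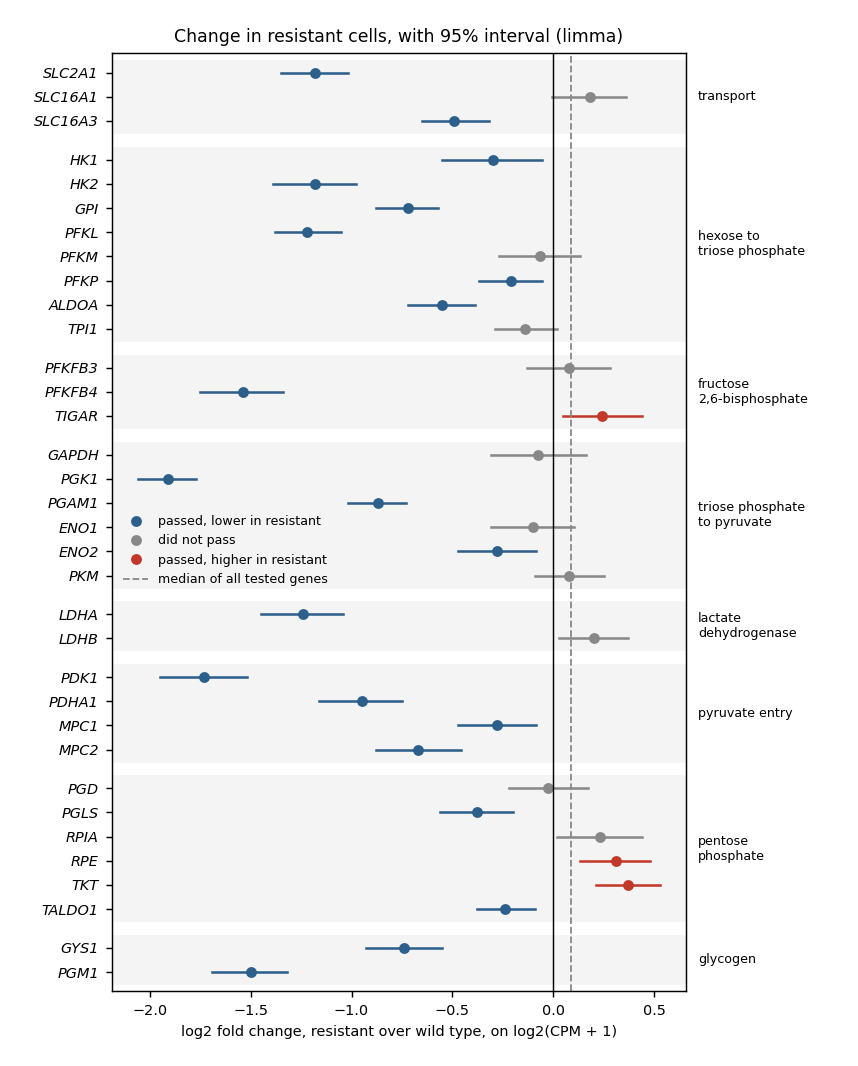
Log2 fold change of resistant over wild type on log2(CPM + 1), with its 95% interval, for the 34 genes by step; the dashed line is the median of all tested genes, 0.087. The largest decreases are PGK1 at -1.91 and PDK1 at -1.73, and the genes that passed as higher are TIGAR, RPE and TKT.

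The promoters were searched for the core motif of HIF-1, taken as ACGTG or GCGTG on either strand, in the 250 bases before the RefSeq start (build GRCh38.p14), using the first entry listed for a gene. Each line below is a stretch of that window, 5′ to 3′ in the direction of the gene, with 12 bases on each side of the outermost matches and the matches in capitals. Stretches are shown only for genes that hold a match: PGK1, LDHA, HK2 and PFKFB4 as genes lower by more than 1 on the log2 scale, and GAPDH and ENO1 as abundant genes that did not pass. They were chosen after their values were known. The stretches lie at chrX:78104025-78104081 (plus strand) for PGK1, chr11:18394366-18394506 (plus) for LDHA, chr2:74833886-74834095 (plus) for HK2, chr3:48556953-48556981 (minus) for PFKFB4, chr12:6535171-6535200 (plus) for GAPDH and chr1:8878742-8878864 (minus) for ENO1.
PGK1: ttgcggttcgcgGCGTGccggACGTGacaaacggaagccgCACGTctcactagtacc
LDHA: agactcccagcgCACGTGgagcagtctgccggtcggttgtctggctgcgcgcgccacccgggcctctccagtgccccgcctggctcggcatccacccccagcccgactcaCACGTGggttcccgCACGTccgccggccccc
HK2: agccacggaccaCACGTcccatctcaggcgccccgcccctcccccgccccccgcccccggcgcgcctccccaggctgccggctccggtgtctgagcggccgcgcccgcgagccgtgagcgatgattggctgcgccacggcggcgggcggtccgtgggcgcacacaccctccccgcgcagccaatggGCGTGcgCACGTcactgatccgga
PFKFB4: tgagttgggcatGCGTGgtcggaggccgg
GAPDH: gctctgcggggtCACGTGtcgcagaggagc
ENO1: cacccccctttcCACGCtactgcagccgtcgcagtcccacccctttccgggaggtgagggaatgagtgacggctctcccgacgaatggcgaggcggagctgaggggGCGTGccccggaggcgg

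CACGT and CACGC in these lines are the motif on the opposite strand, and CACGTG, counted as 2 overlapping matches, reads as ACGTG on both. PGK1 and HK2 each hold 3 matches, LDHA 5, PFKFB4 1, and GAPDH and ENO1 2 each. Of the 8 genes with a change of -1 or below, 5 held a match in the first entry and 3 (SLC2A1, PDK1 and PGM1) held none there. In another entry PDK1 held up to 2 matches and PGM1 up to 3, and 7 of the 8 held a match in any entry. In all, 17 of the 33 genes with a promoter sequence held a match (51.5%), beside 59.3% of the 8973 tested genes with a sequence. Of the genes that passed as lower, 11 of 21 held a match (52.4%), and of the others 6 of 12. RefSeq gives more than 1 entry for 12 of the 33 genes. When a match in any entry was counted, a choice added after seeing the data, the share was 16 of 21 (76.2%) for genes that passed as lower. It was 8 of 12 (66.7%) for the others and 66.6% for tested genes. By this count a gene with more entries has more chances to hold a match, and no difference between these sets was tested. ACGTG alone was found in 9 of 33 (27.3%) in the first entry and in 24.4% of tested genes with a sequence. A match is a description of letters, and the annotated start need not be the start that CAGE measured.

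The genes were also divided by whether they are widely described as HIF-1 targets, a division made from general knowledge with earlier results of these data known. Of the 21 described as targets, 16 passed as lower (76.2%) and 0 as higher (limma, also 0 higher at an unadjusted p under 0.05). The shares over all tested genes were 21.6% lower and 33.5% higher. The described targets had a median log2 fold change of -0.72. The remaining 13 had 5 lower (38.5%) and 3 higher (23.1%). Their median was -0.025, which became 0.013 without resistant replicate 2 and 0.076 without wild type replicate 1. All 8 genes with a change of -1 or below were among the described targets, but the division was made with earlier results known. The part of HIF-1 in these changes was not tested. The 5 described targets that did not pass were TPI1, PFKFB3, GAPDH, ENO1 and PKM. Without resistant replicate 1 the median of the remaining 13 was -0.063.

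Genes of pyruvate entry into mitochondria passed as lower in 4 of 4 cases, beside 21.6% of all tested genes. PDK1 (ENSG00000152256.14), the kinase that switches pyruvate dehydrogenase off, read 19.68 and 17.13 CPM in resistant cells and 61.36 and 65.42 CPM in wild type cells, 0.290 of the wild type level (log2 fold change -1.73, SE 0.093; limma, adjusted p = 4.58e-06). PDHA1, a catalytic subunit that this kinase acts on, read 62.06 and 53.99 CPM in resistant cells and 107 and 119 CPM in wild type cells (log2 fold change -0.95; limma, adjusted p = 6.54e-05). So the kinase and its substrate were both lower in resistant cells. PDHA1, like PGK1, is on chromosome X, with the median of -0.37 given above. The carriers that bring pyruvate across the inner membrane work as a pair. MPC2 read 38.13 and 44.04 CPM in resistant cells and 63.28 and 68.39 CPM in wild type cells, a change of -0.67 (limma, adjusted p = 0.000442), and MPC1 read 37.42 and 39.49 CPM in resistant cells and 44.47 and 49.18 CPM in wild type cells, a change of -0.28 (adjusted p = 0.0222). The call on MPC1 ended without resistant replicate 1 or 2 and without wild type replicate 2 (adjusted p = 0.172, 0.0912 and 0.0665). MPC2 overlaps DCAF6 on the opposite strand, which read 67.11 and 65.95 CPM in resistant cells and 98.15 and 94.99 CPM in wild type cells. PDK1 overlaps the antisense row AC078883.1, at 4.15 and 3.48 CPM in resistant cells and 12.17 and 9.80 CPM in wild type cells. Without known strand use, how far reads of one gene of either pair were counted for the other cannot be told.

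Of the pentose phosphate genes, 2 of 6 were higher, 2 were lower and 2 did not pass, with a median log2 fold change of 0.10. Of all tested genes 33.5% passed as higher and 21.6% as lower, so these counts are near the background. Transketolase, TKT (ENSG00000163931.16), which transfers carbon units between sugars in the non-oxidative arm, read 145 and 153 CPM in resistant cells and 119.5 and 111 CPM in wild type cells. This was the largest increase of the 34 genes, 0.37 on the log2 scale (SE 0.071; limma, adjusted p = 0.00259), and it did not pass without resistant replicate 2 (adjusted p = 0.0580). The epimerase RPE read 41.25 and 40.11 CPM in resistant cells and 32.73 and 32.6 CPM in wild type cells, an increase of 0.31 (limma, adjusted p = 0.00957) that did not pass without resistant replicate 1 or 2 (0.0999 and 0.0717) or under quantile normalization (0.0873). The isomerase RPIA, which makes ribose phosphate, read 42.33 and 45.17 CPM in resistant cells and 39.92 and 34.64 CPM in wild type cells (log2 fold change 0.23, 95% interval 0.017 to 0.44; limma, adjusted p = 0.0641), and passed without wild type replicate 1 (0.33, adjusted p = 0.0146). These 3 enzymes of the non-oxidative arm were higher in both resistant samples. The transaldolase TALDO1, of the same arm, went the other way, with 98.45 and 99.55 CPM in resistant cells and 117 CPM in both wild type samples (log2 fold change -0.24; limma, adjusted p = 0.0132). In the oxidative arm, the lactonase PGLS read 60.36 and 58.26 CPM in resistant cells and 81.53 and 73.19 CPM in wild type cells (log2 fold change -0.38; limma, adjusted p = 0.00409). PGD, which yields NADPH and ribulose phosphate, read 92.88 and 88.09 CPM in resistant cells and 98.81 and 85.74 CPM in wild type cells, with overlapping groups (log2 fold change -0.025, 95% interval -0.22 to 0.17; adjusted p = 0.819). The call on PGLS ended without resistant replicate 2 (adjusted p = 0.0625) and that on TALDO1 without resistant replicate 1 or 2 (0.128 and 0.110).

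Both glycogen genes passed as lower, beside 21.6% of all tested genes. PGM1 (ENSG00000079739.17), the phosphoglucomutase between glucose phosphates, read 26.38 and 28.93 CPM in resistant cells and 82.74 and 77.59 CPM in wild type cells, 0.345 of the wild type level (log2 fold change -1.50, SE 0.082; limma, adjusted p = 4.91e-06). ITGB3BP, which overlaps PGM1 on the opposite strand, read 16.94 and 15.28 CPM in resistant cells and 23.80 and 23.84 CPM in wild type cells. How far reads of one of these genes were counted for the other cannot be told without known strand use. The muscle glycogen synthase GYS1 read 26.9 and 29.21 CPM in resistant cells and 46.44 and 48.68 CPM in wild type cells (log2 fold change -0.74; limma, adjusted p = 0.000168). Resistant samples lay below wild type samples in both.

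Where a step has more than 1 enzyme or carrier, the CPM ratio of a pair within a sample is not altered by a single scale factor per sample, but quantile normalization can alter it, as for ENO2 and ENO1, whose log2 fold changes were then -0.41 and 0. Of 9 such pairs, all 9 had ratios that did not overlap between the groups, where 78.5% of single tested genes did not overlap either; the share for other pairs was not computed. The exact permutation p was 0.333 for each pair (two-sided), the smallest that 2 against 2 samples allow. LDHA to LDHB stood at 0.890 and 0.843 in resistant cells and at 2.46 and 2.26 in wild type cells, so the order of these rows differed. The ratio makes no allowance for AC010197.2, whose reads cannot be told apart from those of LDHB. PFKFB4 to PFKFB3 was 0.497 and 0.528 in resistant cells and 1.56 and 1.78 in wild type cells, another pair whose order differed. HK2 to HK1 was 1.43 and 1.50 in resistant cells and 2.58 and 2.92 in wild type cells, and SLC16A3 to SLC16A1 was 1.60 and 1.66 in resistant cells and 2.87 and 2.35 in wild type cells. In these the inducible or glycolytic partner stayed the more abundant one in each sample, by a smaller margin in resistant cells. PFKP to PFKL was 5.50 and 5.49 in resistant cells and 2.59 and 2.80 in wild type cells, and PFKM to PFKL 0.651 and 0.646 in resistant cells and 0.288 and 0.289 in wild type cells. MPC2 to MPC1 was 1.02 and 1.12 in resistant cells and 1.42 and 1.39 in wild type cells. PDK1 to PDHA1, a kinase and its substrate, was 0.317 in both resistant samples and 0.571 and 0.552 in wild type samples. ENO2 to ENO1 was 0.00581 in both resistant samples and 0.00619 and 0.00702 in wild type samples, a difference of -0.17 in the log2 ratio of CPM + 1.

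**Figure D3:**
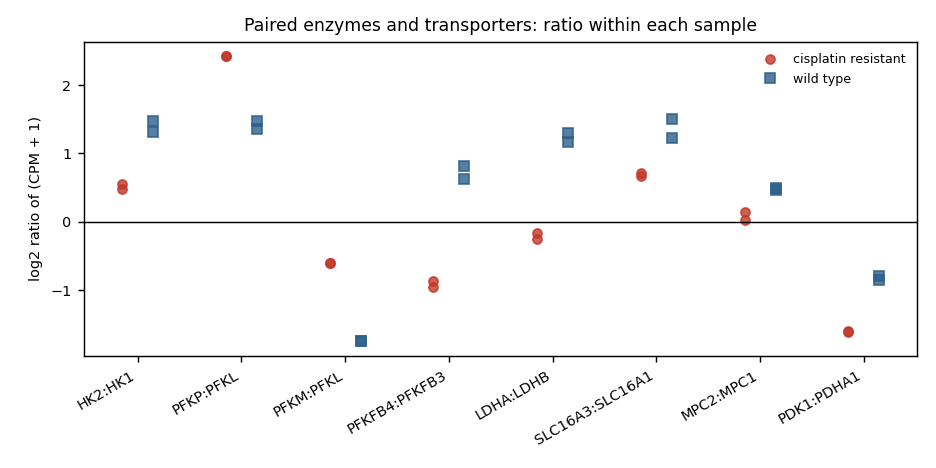
Log2 ratio of (CPM + 1) between paired enzymes or carriers in each sample, circles for cisplatin-resistant and squares for wild type samples; the line at 0 marks equal levels. LDHA:LDHB and PFKFB4:PFKFB3 lie below 0 in both resistant samples and above 0 in both wild type samples; ENO2:ENO1, near -7.38 in resistant and -7.21 in wild type samples, is left off the scale.

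Other genes of glucose metabolism, listed by pathway, changed in both directions. Of 91 tested, 25 passed as lower (27.5%) and 23 as higher (25.3%), beside 21.6% and 33.5% of all tested genes, with a median log2 fold change of 0.026. In the pyruvate dehydrogenase complex and its regulators, 3 of 11 passed as lower and 3 as higher. PDK3, another kinase of the complex, read 2.41 and 3.65 CPM in resistant cells and 23.63 and 23.35 CPM in wild type cells (log2 fold change -2.62; limma, adjusted p = 7.34e-06), lower like PDK1 and, unlike it, on chromosome X. The phosphatase PDP1, which switches the complex on, was lower as well (-0.81, adjusted p = 0.000148), and PDPR, a regulatory subunit of the phosphatase, was higher (1.04, adjusted p = 0.000403).

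Among other glycolysis isozymes and regulators, 3 of 14 passed as lower and 5 as higher, beside 21.6% and 33.5% of all tested genes. TXNIP, a glucose-responsive inhibitor of glucose uptake, read 0.05 and 0.06 CPM in resistant cells, which is 1 read in each, and 3.29 and 3.58 CPM in wild type cells, which is 60 and 65 reads. After scaling for the depth of the libraries, the ratio of summed reads was 67.0, wild type over resistant, with an exact (Clopper-Pearson) 95% interval of 18.2 to 559 that covers counting error only (limma on log2(CPM + 1), -2.07, adjusted p = 1.96e-05). ARRDC4, of the same list, read 1.46 and 1.8 CPM in resistant cells and 1.92 and 1.16 CPM in wild type cells, with overlapping groups. It did not pass (limma, adjusted p = 0.791) and is named here after its values were seen. The cause of the TXNIP difference was not tested. The ADP-dependent glucokinase ADPGK rose in resistant cells, with 34.64 and 35.62 CPM there and 19.79 and 19.82 CPM in wild type cells (0.80, adjusted p = 0.000120). SLC2A13, a proton-coupled inositol transporter of the glucose transporter family, was also higher, at 4.11 and 4.55 CPM in resistant cells and 0.82 and 0.77 CPM in wild type cells (1.57, adjusted p = 5.91e-05).

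In glycogen metabolism beyond GYS1 and PGM1, 5 of 15 passed as lower and 3 as higher, beside 21.6% and 33.5% of all tested genes. PPP1R3C, which targets a phosphatase to glycogen and so favours its synthesis, read 7.69 and 8.43 CPM in resistant cells and 46.06 and 46.04 CPM in wild type cells, a change of -2.38 (limma, adjusted p = 1.24e-06). The liver-type phosphorylase PYGL was lower (-0.63, adjusted p = 0.000124). In the hexosamine and mannose branch 5 of 10 passed as lower and 2 as higher. GFPT2, an isozyme of the enzyme that commits fructose phosphate to hexosamines, read 5.29 and 5.39 CPM in resistant cells and 33.83 and 34.2 CPM in wild type cells (-2.47, adjusted p = 1.25e-06), and UAP1, later in that branch, fell by 0.43 (adjusted p = 0.00145). GNPDA1, which runs the branch back towards glycolysis, rose by 0.46 (adjusted p = 0.000798).

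The NADH shuttles, the tricarboxylic acid cycle and the other sources of NADPH and ribose phosphate also changed in both directions. For comparison, 33.5% of all tested genes passed as higher and 21.6% as lower. In the shuttles 4 of 8 passed as higher and 1 as lower, with the glycerol phosphate dehydrogenase GPD2 at 0.62 and the aspartate aminotransferase GOT1 at 0.36 (limma, adjusted p = 0.00132 and 0.00412) and the aspartate-glutamate carrier SLC25A12 at -0.48 (0.00197). In the cycle 3 of 12 passed in each direction, between -0.45 and 0.36, with IDH3A higher and OGDH and SUCLG1 lower. Malic enzyme ME1, which makes NADPH in the cytosol, read 28.93 and 25 CPM in resistant cells and 12.72 and 13.77 CPM in wild type cells (0.97, adjusted p = 0.000154). The sedoheptulose kinase SHPK rose by 0.67 (adjusted p = 0.000561), while PRPS1, which turns ribose phosphate into the nucleotide precursor and lies on chromosome X, fell by 0.60 (adjusted p = 0.000203). Pyruvate carboxylase PC fell by 0.80 (adjusted p = 0.000196), the one of 4 gluconeogenesis genes to pass, and ketohexokinase KHK fell by 0.93 and sorbitol dehydrogenase SORD by 0.32 (adjusted p = 0.00121 and 0.0123), 2 of 5 fructose and polyol genes. Under median-ratio scaling, 19 of the 91 genes passed as higher and 31 as lower. Of the 12587 tested genes, 3574 and 3420 did so in that fit.

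**Figure D4:**
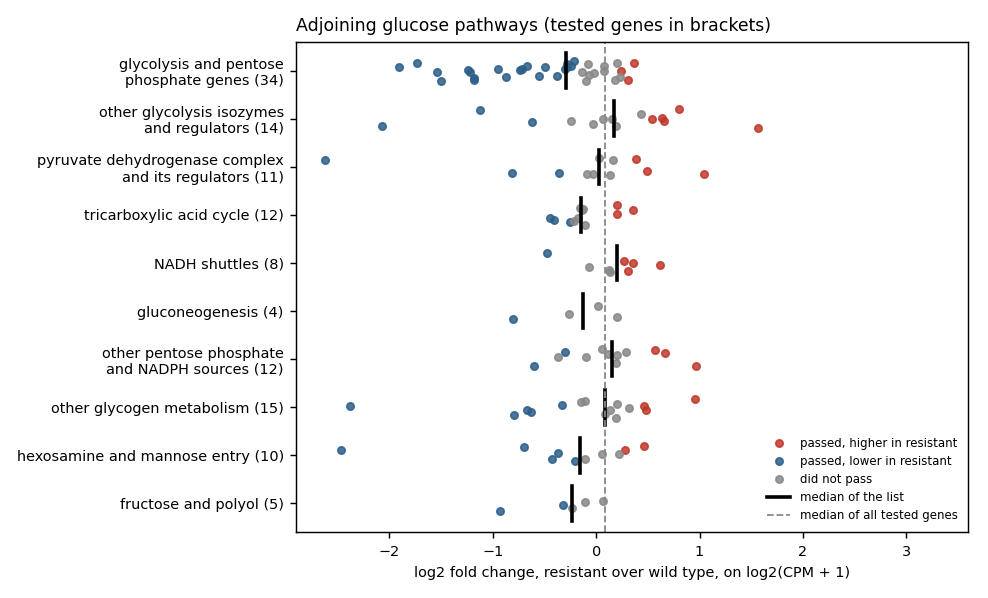
Log2 fold change of resistant over wild type on log2(CPM + 1) for the glycolysis and pentose phosphate genes (top line) and for 9 adjoining lists, 1 point per tested gene with the number tested in brackets; black bars are list medians and the dashed line is the median of all tested genes. The top line has its median at -0.29, while the adjoining lists have medians between -0.23 and 0.20 with single genes such as PDK3, GFPT2 and PPP1R3C far to the left.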

How the data were processed

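CAGE libraries were made, per the labels' protocols, from total RNA with random primers, cap-trapping on streptavidin beads and adaptor ligation to both ends. The authors deposited 1 table of CPM, 1 column per sample, each scaled to its own total over 13743 listed genes. Per the submitters' processing notes, the tool named is BWA 0.5.9, and 2 builds (hg19, mm9) are listed with no role. Counting tool, annotation, strand use and gene filter: not given in the sources used here. Values lay within 0.00529 CPM of whole multiples of 1 step per column, from which reads were taken for TXNIP only. No count model was run. On log2(CPM + 1), a linear model per gene (limma 3.58.1, R 4.3.3, moderated with a mean-variance trend) was fitted over the 12587 genes whose mean reached 1 CPM, and Benjamini-Hochberg adjusted p-values under 0.05 passed. Fold changes on this scale understate those of low genes. SE and 95% intervals are the moderated ones. The fit was tested on simulated data with large changes in few genes, as many raised as lowered. That test does not cover small changes or a shift of most genes. Exact permutation tests used scipy 1.17.1. Groups came from sample titles. Alternatives changed the pseudocount (0.5), the filter (none, or 5 CPM), the scaling, the trend, a replicate block, and each replicate in turn. The genes and lists were chosen with earlier results of these data known. All 34 genes are named, and up to 3 genes per adjoining list with the smallest adjusted p, plus some genes that overlap a named gene; 1 gene of the adjoining lists is not reported here. Chromosomes and overlaps came from GENCODE 29 by Ensembl identifier (99.3% matched), and 18 of the 34 genes overlap another listed gene, 8 on the same strand. No coordinates are given for the rows, as their build is not settled.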

Additional observations from a re-analysis of the deposited data

How the results depend on the processing

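Depth does not limit these genes, whose levels lie far above the worth of 3 reads (0.142 to 0.169 CPM), but 2 samples per group do: of the 24 genes that passed, 15 kept their direction and their side of the threshold in all 11 alternatives and 9 lost the call in at least 1 (HK1, PFKP, TIGAR, ENO2, MPC1, PGLS, RPE, TKT and TALDO1). Leaving out 1 replicate at a time, the count over all genes lay between 4279 and 6790 against 6945, that of the 34 genes between 15 and 24 (higher 0 to 5, lower 15 to 21), that of described HIF-1 targets lower between 13 and 16, that of the remaining genes lower between 2 and 5, and those of the adjoining lists between 14 and 27 higher and between 16 and 28 lower. The median log2 fold change of the 34 genes then lay between -0.33 and -0.28, that of the described targets between -0.74 and -0.68, and that of the remaining genes between -0.064 and 0.076. Under median-ratio scaling these medians were -0.37, -0.81 and -0.11, and under quantile normalization the median of the 34 genes was -0.41 and that of the remaining genes -0.12; the median of all tested genes was 0.0088 under median-ratio scaling, and higher and lower calls then numbered 3574 and 3420 against 4221 and 2724. Genes that did not pass changed sign as follows: PFKFB3 to -0.0045 (median-ratio) and -0.062 (quantile), PKM to -0.0062 (median-ratio), GAPDH to 0.0017 without wild type replicate 1 (range over left-out replicates -0.15 to 0.0017), and PGD to 0.013 without resistant replicate 2 and 0.076 without wild type replicate 1 (range -0.13 to 0.076). The difference in log2 ratio of PFKM to PFKL was 1.16 with a pseudocount of 0.5. With 1 replicate left out the differences in log2 ratio lay between -1.5 and -1.38 for LDHA to LDHB, -1.72 and -1.53 for PFKFB4 to PFKFB3, and -0.26 and -0.084 for ENO2 to ENO1. With the replicate number as a block, 25 of the 34 genes passed (4 higher, 21 lower) and 7098 genes in all; the numbers share nothing in the labels, and the deviations of same-numbered samples correlated at -0.079 across genes. Where a single sample was left in a group it was assumed to vary like the other group. The number of all called genes that kept their call in every alternative is not given here. For the other changes the cause was not tested.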

Other observations

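By chromosome, the median log2 fold change of tested genes was lowest on X (-0.37, 375 genes), then on 8 (-0.27), 21 (-0.26) and 22 (-0.21), and highest on 9 (0.34), 18 (0.33) and 7 (0.28). Of the 34 genes 2 lie on X (PGK1 and PDHA1) and 1 on 21 (PFKL), while chromosomes 1 and 12, with 6 genes each, had medians of 0.12 and 0.18. On chromosome 12, GAPDH, TPI1, PFKM and LDHB did not pass, ENO2 was lower and TIGAR higher. The part of chromosome in any result was not tested. On chromosome 1, SLC2A1, MPC2 and PGM1 were lower, and ENO1, PGD and SLC16A1 did not pass.

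Some rows named as pseudogenes of these genes carried signal. GAPDHP1 read 10.05 and 10.90 CPM in resistant cells and 11.51 and 8.15 CPM in wild type cells. ENO1P1 read 6.75 and 9.49 CPM in resistant cells and 7.02 and 6.39 CPM in wild type cells. LDHBP2 read 53.90 and 46.51 CPM in resistant cells and 38.77 and 42.07 CPM in wild type cells, and TPI1P1 7.69 and 7.36 CPM in resistant cells and 8.77 and 8.87 CPM in wild type cells, while PGK1P2 stayed at or below 0.17 CPM in each sample.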
